A study of Mus musculus with 6 samples.

Results

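SUMO proteins are small relatives of ubiquitin that cells attach to lysines of other proteins, and the genes described here encode 2 SUMO precursors (Sumo2 and Sumo3), the 2 subunits of the SUMO-activating enzyme (Sae1 and Uba2) and 4 SUMO proteases (Senp1, Senp2, Senp6 and Senp7). They were taken by name from a table of 23505 gene rows, and all 8 had a row and enough counts to be tested. The set was selected on the measured counts of the same ConA+SIM against ConA contrast, so the fold changes of its members there are given as a description, without a test. Hepatic CD4+ T cells of wild-type mice were sequenced after concanavalin A (ConA) had been given, a lectin from jack beans that stimulates T cells and causes an immune hepatitis. The ConA+SIM group (3 libraries) was gavaged with simvastatin, a statin that blocks cholesterol synthesis, at 30 mg/kg, and the ConA group (3 libraries) with phosphate-buffered saline. In both groups gavage was daily for 5 days before ConA, with further doses 1 h before and 24 h after it, and the gate kept CD3-positive, CD4-positive cells without CD8 or NK1.1. The labels give no strain, age or sex and do not say whether a library is 1 animal or a pool, and every group received ConA, so uninjected cells are not part of the comparison.

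SUMO is made as a precursor that SENP proteases trim. The trimmed form is activated by the Sae1-Uba2 heterodimer, then placed on substrates, often with the help of PIAS ligases or Ranbp2. The same protease family removes it again; Senp1 and Senp2 act on all SUMO forms, whereas Senp6 and Senp7 mainly cut chains built of the Sumo2 and Sumo3 products. Those 2 proteins are nearly identical and form chains, and their conjugation is known to increase under cell stress. In T cells, signalling proteins downstream of the antigen receptor, NFAT factors among them, are known SUMO substrates.

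Sumo2 (chr11:115523102-115536276, GRCm38, minus strand) and Sumo3 (chr10:77606097-77618331, plus strand) are the closest paralogs among the 8 genes, and their coding sequences are shown because reads of near-identical genes could be split or lost in counting. Over 282 aligned coding bases 81.2% were identical. The stretch of 120 coding bases with the fewest differences is printed for each gene, 5′ to 3′ on the coding strand, with the 15 differing bases in capitals.
Sumo2: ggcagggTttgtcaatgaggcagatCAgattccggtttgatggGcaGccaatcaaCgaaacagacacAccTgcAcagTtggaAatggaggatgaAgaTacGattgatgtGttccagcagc
Sumo3: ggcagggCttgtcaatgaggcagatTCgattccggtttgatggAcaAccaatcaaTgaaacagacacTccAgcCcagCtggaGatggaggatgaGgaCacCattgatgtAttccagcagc
The longest identical run between them was 17 bases. No run of 50 bases was shared by the Sumo2 and Sumo3 transcripts, so a read of that length could be told apart between these 2 genes. Copies elsewhere in the genome differed between them. Of the 50-base windows of the Sumo2 transcript, 30.2% also occurred in transcripts of 14 other genes, 11 of them annotated as pseudogenes (GENCODE release M21). The same share was 0 for Sumo3, Sae1, Uba2, Senp1 and Senp7, 0.79% for Senp6 and 0.876% for Senp2. Of the 14 genes that share windows with Sumo2, 1 had a row among the 23505 gene rows. The treatment of reads matching several places is not known from the sources used here, so the level of Sumo2 is uncertain. Sumo3 shared 11.5% of its windows with Gm49325 and Senp1 6.33% with Gm26513, both overlapping genes at the same locus, and strand handling is likewise unknown.

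Total counts ran from 17549429 to 25031862 per library. ConA+SIM replicate 2 stood apart, where 18.4% of tested genes had no counts, beside 2.76% to 9.98% elsewhere, and results are therefore also given without it. The sort markers Cd4 (441 to 562 CPM in ConA+SIM and 485 to 766 CPM in ConA; CPM is counts per 1000000 counts of the scaled library) and Cd3d (553 to 702 and 312 to 453 CPM) were present in every library, and of the excluded CD8 chains Cd8a was at most 15.9 CPM while Cd8b1 was at 21.8 to 54.1 CPM in ConA+SIM and 4.64 to 33.1 CPM in ConA. Klrb1c, the gene of the NK1.1 antigen that the gate excluded, was at 39.0 to 43.5 CPM in ConA+SIM and 6.69 to 20.0 CPM in ConA. Markers of other cells also varied in level, between the groups or between libraries of a group. The summed level of 9 NK and ILC1 markers was 487 to 552 CPM in ConA+SIM and 171 to 213 CPM in ConA. Of the 5 tested, 0 were called and 4 had higher values in ConA+SIM, with a lowest log2 fold change of -0.53. Ncr1 and Klra8 were at 0 throughout, and Klra4, Klra7, Eomes and Prf1 at 0 in at least 1 library. The 5 erythroid markers summed to 229 to 343 CPM in ConA+SIM and 43.8 to 115 CPM in ConA (1 of 5 called, Alas2 at 0 in at least 1 library). The 6 neutrophil markers summed to 557 to 860 CPM in ConA+SIM and 258 to 364 CPM in ConA (0 of 4 called). However, 2 of the 4 tested ones had log2 fold changes below 0, down to -2.72. Ly6g was at 0 throughout, and Retnlg, Mpo and Elane at 0 in at least 1 library. The 10 macrophage markers summed to 245 to 1201 CPM in ConA+SIM and 949 to 2200 CPM in ConA, with Clec4f, Cd68, Vsig4 and Marco at 0 in at least 1 library; all 8 tested ones had lower values in ConA+SIM (median log2 fold change -1.19, 0 called), and 7 of the 8 were lowest in ConA+SIM replicate 2. The 8 sinusoidal endothelial markers summed to 293 to 584 CPM in ConA+SIM and 238 to 1781 CPM in ConA, and all 8 had lower values in ConA+SIM (median -0.94, 0 called, Stab2 and Cdh5 at 0 in at least 1 library). The 8 hepatocyte markers summed to 80.3 to 174 CPM in ConA+SIM and 10.8 to 86.2 CPM in ConA. The 5 tested ones had higher values in ConA+SIM (median 1.70, 0 called), but 4 of these 5 had 0 counts in at least 1 library. Of the 8 markers, 7 were at 0 in at least 1 library, Cps1 throughout. The part of these cells in the results was not tested, and in bulk libraries fewer cells of a type and less RNA per cell cannot be told apart.

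Across the 8 genes 0 passed the test over all genes in either direction (edgeR quasi-likelihood test, Benjamini-Hochberg adjusted p under 0.05), where 0.542% of 10509 tested genes passed. At an unadjusted p under 0.05 there was 1 of the 8, against 8.85% of all tested genes. DESeq2 also called 0 of the 8, against 5.21% of all genes, and limma-voom 0 of the 8, against 1.09%. Since the genes were proposed from this contrast, nothing is read from these counts. ConA+SIM and ConA libraries were fully separate in 1 of the 8 (17.8% of all tested genes), with ConA+SIM above ConA in 0 (9.18% of all) and below it in 1 (8.57% of all). Values were higher in ConA+SIM for 2 genes and lower for 6, with a median log2 fold change of -0.16 beside -0.04 over all tested genes.

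**Figure D1:**
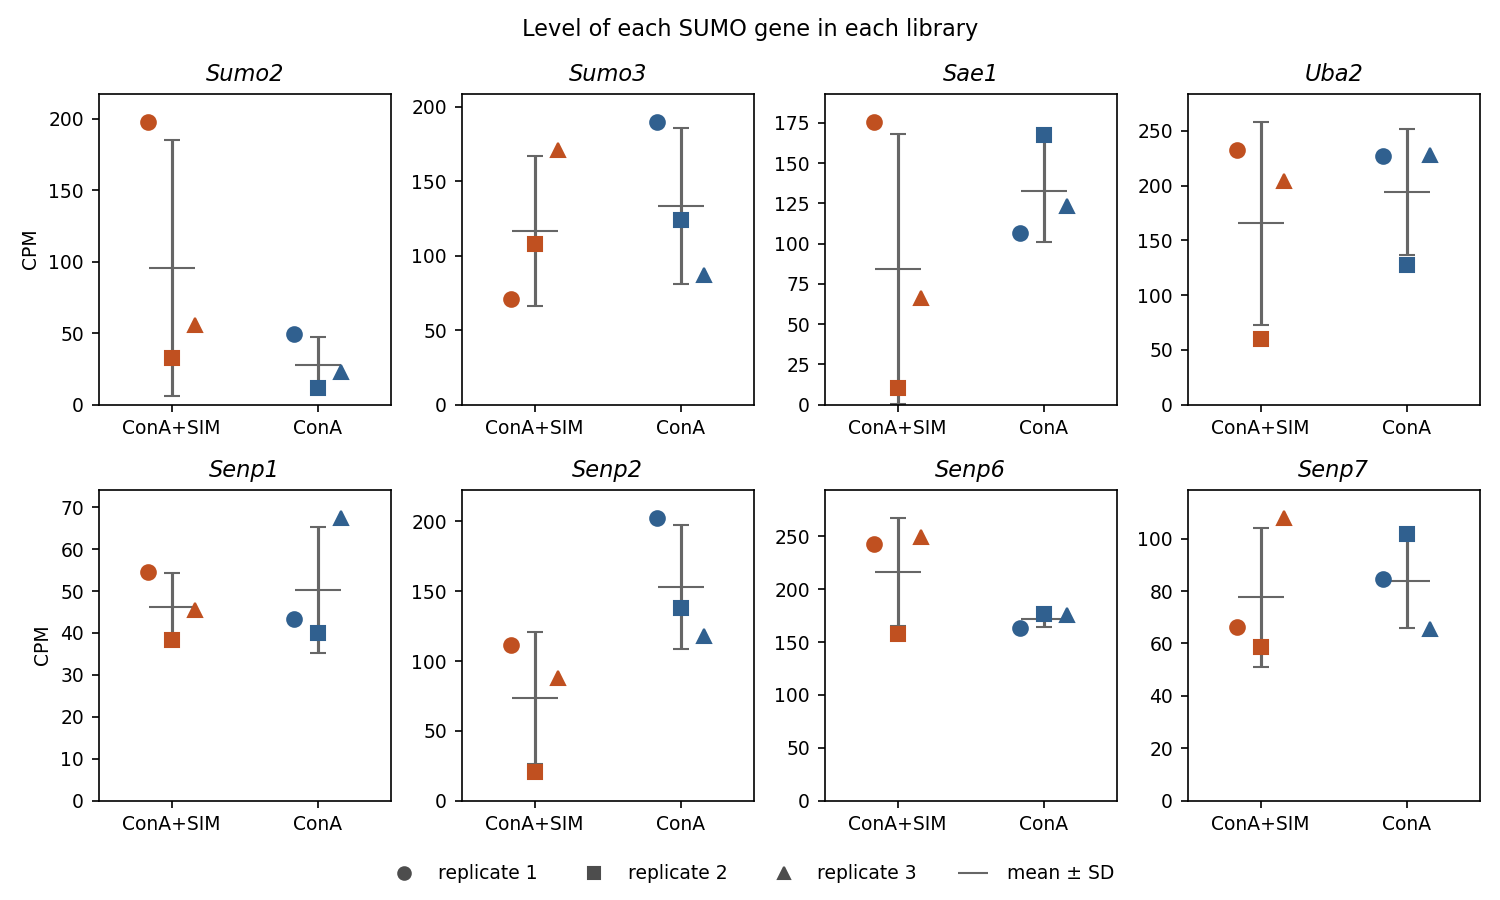
Level of each of the 8 genes (y axis, CPM from 0) in the ConA+SIM and ConA libraries (x axis); each symbol is a library, its shape gives the replicate number and the horizontal mark with bars is the mean ± SD of 3 libraries. Senp2 alone has no overlap between the groups, and ConA+SIM replicate 2 (square) is the lowest library for 6 of the 8 genes.

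Among the SUMO precursors, Sumo2 had the largest fold change of the 8. It stood at 198, 32.6 and 55.7 CPM in ConA+SIM replicates 1 to 3, against 49.4, 11.6 and 22.8 CPM in ConA replicates 1 to 3. ConA+SIM replicate 1 was far above every other library, and ConA+SIM replicate 2 lay below ConA replicate 1, so the groups overlapped. The means were 95.4 ± 89.6 CPM in ConA+SIM and 27.9 ± 19.4 CPM in ConA (SD, n = 3 each), a log2 fold change of 1.77 ± 0.77 (SE). Without ConA+SIM replicate 2 it was 2.18 ± 0.72, and without ConA+SIM replicate 1 it was 0.66. The Sumo2 transcript is the shortest of the 8, at 1051 nt, and with offsets for transcript length in each library its log2 fold change was 1.15 ± 0.69, and 0.72 ± 0.69 with GC content added.

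Sumo3 did not share this pattern. It stood at 71.3, 108 and 171 CPM in ConA+SIM replicates 1 to 3 and at 190, 124 and 86.8 CPM in ConA replicates 1 to 3. The library with the most Sumo2, ConA+SIM replicate 1, had the least Sumo3. The ConA+SIM and ConA values were interleaved, and the log2 fold change was -0.19 ± 0.42, or -0.14 ± 0.48 without ConA+SIM replicate 2. Leaving out ConA replicate 1 or ConA+SIM replicate 1 turned its sign, with a highest value of 0.14.

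The subunits of the activating enzyme work as a pair, Uba2 carrying the catalytic cysteine and Sae1 being its partner subunit. Sae1 (chr7:16320234-16387806) stood at 176, 10.6 and 66.3 CPM in ConA+SIM replicates 1 to 3, against 107, 167 and 123 CPM in ConA replicates 1 to 3. ConA+SIM replicate 2, with 181 counts, was the lowest and ConA+SIM replicate 1 the highest of all 6 libraries, a 16.6-fold spread inside the group, whereas the ConA libraries spread 1.56-fold. The log2 fold change was -0.65 ± 0.77 with all libraries and -0.13 ± 0.45 without ConA+SIM replicate 2. Uba2 (chr7:34140688-34169599) stood at 233, 60.0 and 204 CPM in ConA+SIM replicates 1 to 3, against 227, 127 and 228 CPM in ConA replicates 1 to 3. Here too ConA+SIM replicate 2 was the lowest, and the other ConA+SIM libraries lay close to ConA replicates 1 and 3. The log2 fold change of -0.23 ± 0.47 became 0.17 ± 0.32 without ConA+SIM replicate 2, so its sign depended on that library.

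The ratio of Sae1 to Uba2 levels, each as CPM per kb of transcript, was 1.04, 0.242 and 0.446 in ConA+SIM replicates 1 to 3, against 0.647, 1.81 and 0.744 in ConA replicates 1 to 3. The mRNAs of the pair were thus in unequal proportion from library to library in both groups. The ratio of Sumo2 to Sumo3 on the same scale was 6.95, 0.757 and 0.816 in ConA+SIM replicates 1 to 3, against 0.65, 0.235 and 0.658 in ConA replicates 1 to 3. Every ConA+SIM value was above every ConA value, although ConA+SIM replicate 2 and ConA replicate 3 lay close together, and Sumo2 exceeded Sumo3 in ConA+SIM replicate 1 and in no other library. Both genes belong to the selected set, and the copies of Sumo2 elsewhere in the genome bear on this ratio, so it is given without a test. The transcripts also differ in length, at 1051 nt for Sumo2 and 2630 nt for Sumo3. With offsets for length and GC content the log2 fold changes were 0.72 for Sumo2 and -0.10 for Sumo3, beside 1.77 and -0.19 without them. How often such ratios separate the groups for other pairs of genes was not counted.

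**Figure D2:**
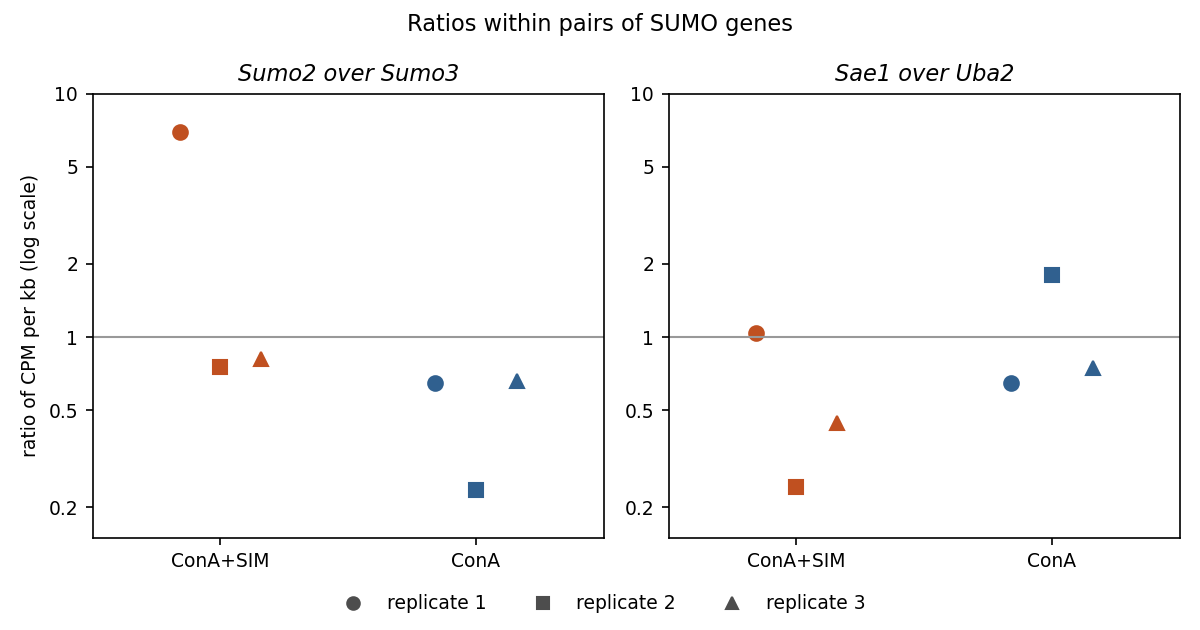
Ratio of Sumo2 to Sumo3 (left) and of Sae1 to Uba2 (right), each from CPM per kb of transcript (y axes, log scale), in the ConA+SIM and ConA libraries; each symbol is a library, its shape gives the replicate number, and the line marks a ratio of 1. The Sumo2 to Sumo3 ratio of 6.95 in ConA+SIM replicate 1 stands far above the rest, and the Sae1 to Uba2 ratio is lowest, 0.242, in ConA+SIM replicate 2.

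Among the proteases, Senp2 was the member whose groups did not overlap. Senp2 (chr16:22009484-22049269), which works largely at the nuclear envelope, stood at 111, 20.4 and 87.8 CPM in ConA+SIM replicates 1 to 3, against 203, 138 and 118 CPM in ConA replicates 1 to 3. All 3 ConA+SIM values lay below all 3 ConA values, as they did in 8.57% of tested genes, although the closest pair, 111 and 118 CPM, differed little. The means were 73.2 ± 47.3 CPM in ConA+SIM and 153 ± 44.4 CPM in ConA (SD, n = 3 each), a log2 fold change of -1.06 ± 0.56, and -0.61 ± 0.35 without ConA+SIM replicate 2. Over 14 alternatives it stayed between -1.49 and -0.61.

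Senp6 (chr9:80066903-80144953), a chain-cutting protease, was the steadiest of the 8 genes. It stood at 242, 158 and 249 CPM in ConA+SIM replicates 1 to 3, against 163, 177 and 176 CPM in ConA replicates 1 to 3. The ConA libraries spread 1.08-fold, and 2 of the 3 ConA+SIM libraries lay above them while ConA+SIM replicate 2 lay below. The log2 fold change was 0.33 ± 0.26 and became 0.52 ± 0.24 without that library. Its biological coefficient of variation, the replicate spread beyond counting error, was 0.281, lower than in all but 6.40% of tested genes.

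Senp7 (chr16:56048338-56190012), the other chain-cutting protease, stood at 66.2, 58.6 and 108 CPM in ConA+SIM replicates 1 to 3 and at 84.6, 102 and 65.7 CPM in ConA replicates 1 to 3. Senp1 (chr15:98038744-98093744), a nuclear protease that acts on all SUMO forms, stood at 54.5, 38.3 and 45.5 CPM in ConA+SIM replicates 1 to 3 and at 43.3, 40.0 and 67.5 CPM in ConA replicates 1 to 3. In both genes the groups overlapped, with log2 fold changes of -0.11 ± 0.39 for Senp7 and -0.12 ± 0.47 for Senp1. Without ConA+SIM replicate 2 the values were 0.05 ± 0.40 and -0.01 ± 0.48.

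**Figure D3:**
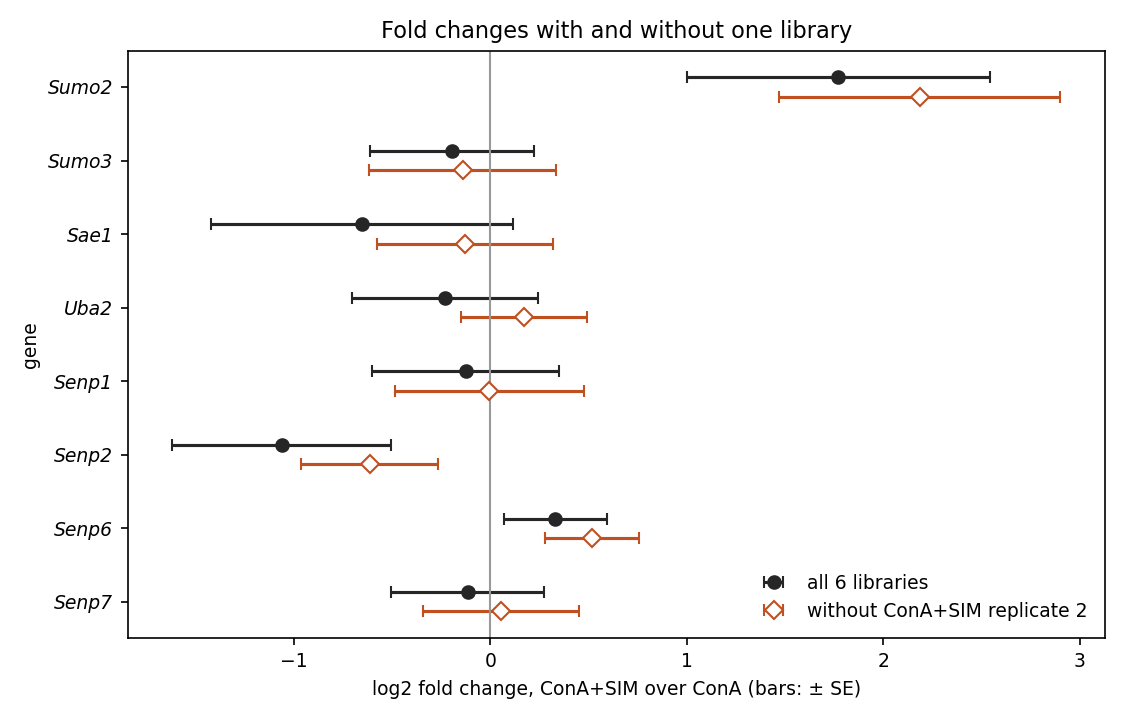
Log2 fold change of each of the 8 genes, ConA+SIM over ConA (x axis, bars ± SE from the edgeR fit), with all 6 libraries (filled circles) and without ConA+SIM replicate 2 (open diamonds). Without that library Sae1, Uba2, Senp1 and Senp7 lie between -0.13 and 0.17, Sumo2 and Senp6 stay above 0 and Senp2 stays below.

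ConA+SIM replicate 2 was the lowest of the 6 libraries in 6 of the 8 genes, namely Sae1, Uba2, Senp1, Senp2, Senp6 and Senp7, and in 32.3% of all tested genes. The tested macrophage markers were lowest in that library in 7 of 8, and their part in the members' values was not tested. Sumo2 and Sumo3 were the exceptions. The summed level of the 8 genes was 1152, 486 and 988 CPM in ConA+SIM replicates 1 to 3, against 1068, 886 and 887 CPM in ConA replicates 1 to 3. None of the 8 had 0 counts in any library, while 3138 of the 10509 tested genes had 0 in at least 1.

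The level of a gene relative to another was read per kb of transcript, with 1 GENCODE transcript per gene. Uba2 was the highest of the 8, with a median over the 6 libraries of 83.7 CPM per kb, and Sae1 followed at 61.3 CPM per kb. Then came Sumo3 at 44.0, Sumo2 at 39.0, Senp6 at 34.5, Senp2 at 25.5, Senp7 at 15.6 and Senp1 at 6.75 CPM per kb. Neighbours in this order overlapped over the libraries except for Senp7 and Senp1, where Senp7 was higher in 6 of 6 libraries. Uba2 was above Sae1 in 4 of 6 libraries and Sae1 above Sumo3 in 3 of 6, so the upper ranks are not fixed by these data. The place of Sumo2 is also uncertain because 30.2% of its 50-base windows occurred in other genes. The lowest value of Sumo2, 11.1 CPM per kb in ConA replicate 2, and its highest, 188 CPM per kb in ConA+SIM replicate 1, gave it the widest range of the 8 genes, 17.0-fold.

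**Figure D4:**
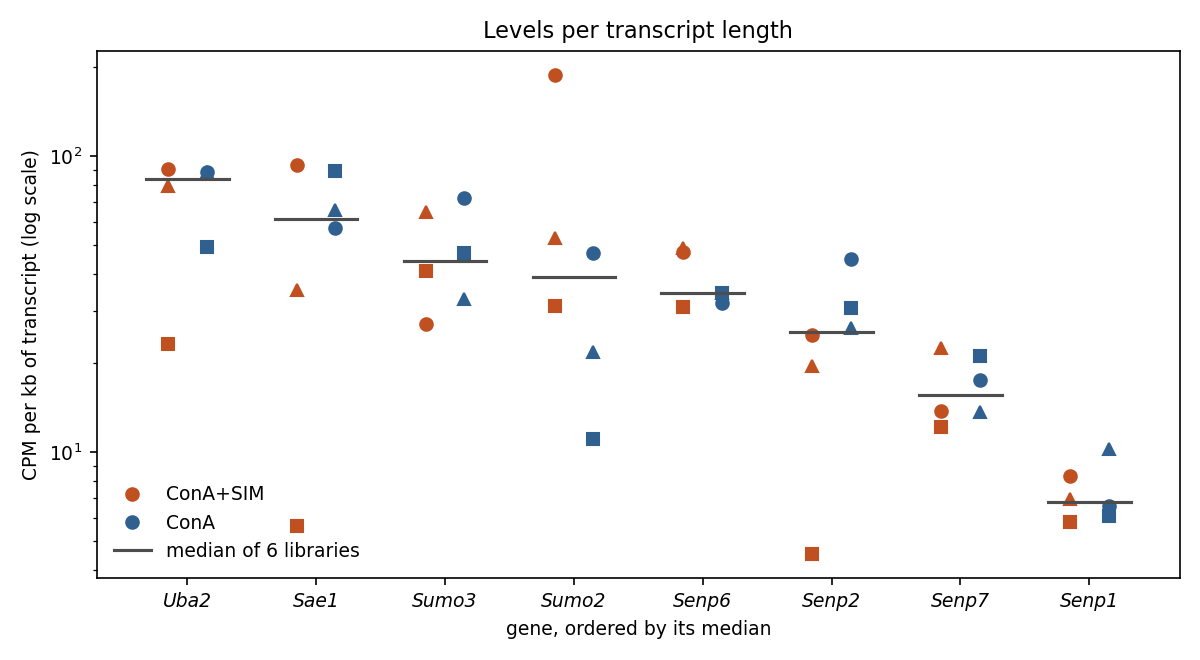
Level of each of the 8 genes per kb of transcript (y axis, log scale), ordered by the median over 6 libraries (horizontal line); ConA+SIM libraries are on the left of each gene and ConA libraries on the right, with circles, squares and triangles for replicates 1, 2 and 3. Uba2 has the highest median, 83.7 CPM per kb, and Senp1 the lowest, 6.75 CPM per kb.

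The rest of the pathway is described by 24 further genes, of which 23 had enough counts to be tested. Of these 23, 0 rose and 0 fell by edgeR, where 0.542% of all tested genes rose and 0 fell. At an unadjusted p under 0.05 there were 4 (8.85% of all tested genes), and DESeq2 called 1, Rnf111 (5.21% of all). ConA+SIM lay fully above ConA in 1 of the 23, Ranbp2 (9.18% of all tested genes). It lay fully below ConA in 3, Rnf111, Zmiz1 and Sp100 (8.57% of all). The median log2 fold change was -0.02, beside -0.04 over all tested genes. Daxx, which binds SUMO in nuclear bodies, was the untested gene: its plain row was almost empty and its counts lay in rows marked as further copies of the symbol.

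Ranbp2, a ligase of the nuclear pore, averaged 352 ± 58.7 CPM in ConA+SIM and 242 ± 28.9 CPM in ConA (SD, n = 3 each) without overlap between the groups. It did not pass (log2 fold change 0.54 ± 0.23, edgeR adjusted p = 0.519). The value was 1.23 with length offsets and 0.76 with GC content added. Pias1, a ligase first described as an inhibitor of activated STAT, averaged 33.3 ± 8.29 CPM in ConA+SIM and 53.8 ± 16.8 CPM in ConA. It did not pass (-0.69 ± 0.53), and was at -0.32 with length offsets and -0.71 with GC content added.

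Of the proteases outside the 8 genes, 0 of 5 passed by edgeR, 0 by DESeq2, and 0 had an unadjusted edgeR p under 0.05. Senp3, a nucleolar protease, averaged 82.5 ± 17.7 CPM in ConA+SIM and 95.0 ± 64.8 CPM in ConA (log2 fold change -0.20 ± 0.55, a sign that turned in 4 of the 14 alternatives), and 14.5% of its 50-base windows also occurred in 2 pseudogenes. Senp5, its close relative, averaged 39.0 ± 24.4 CPM in ConA+SIM and 66.0 ± 32.6 CPM in ConA (-0.76 ± 0.68), a value that was -0.32 without ConA+SIM replicate 1, -1.16 without ConA+SIM replicate 3 and -0.28 with length offsets. In both the groups overlapped.

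Rnf4 and Rnf111 encode ubiquitin ligases that recognise SUMO chains on a substrate. Rnf111 had the smallest p of the 23. It averaged 39.3 ± 17.9 CPM in ConA+SIM and 97.4 ± 14.3 CPM in ConA (SD, n = 3 each) without overlap. Its log2 fold change of -1.31 ± 0.45 did not pass in edgeR (adjusted p = 0.392) or limma-voom (adjusted p = 0.292) but did in DESeq2 (-1.34 ± 0.44, adjusted p = 0.0457). Rnf111 was lowest in ConA+SIM replicate 2, and without that library the edgeR value was -1.04 ± 0.41. Of its 50-base windows, 4.89% also occurred in 1 pseudogene. Rnf4 averaged 174 ± 31.7 CPM in ConA+SIM and 150 ± 29.6 CPM in ConA (0.22 ± 0.28, edgeR adjusted p = 0.999), a value that ran from 0.053 without ConA replicate 1 to 0.54 with length offsets. Zmiz1, a PIAS-like protein, came next by p, at 85.2 ± 21.2 CPM in ConA+SIM and 152 ± 31.5 CPM in ConA (-0.84 ± 0.32, edgeR adjusted p = 0.466), a sign that length and GC offsets turned.

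**Figure D5:**
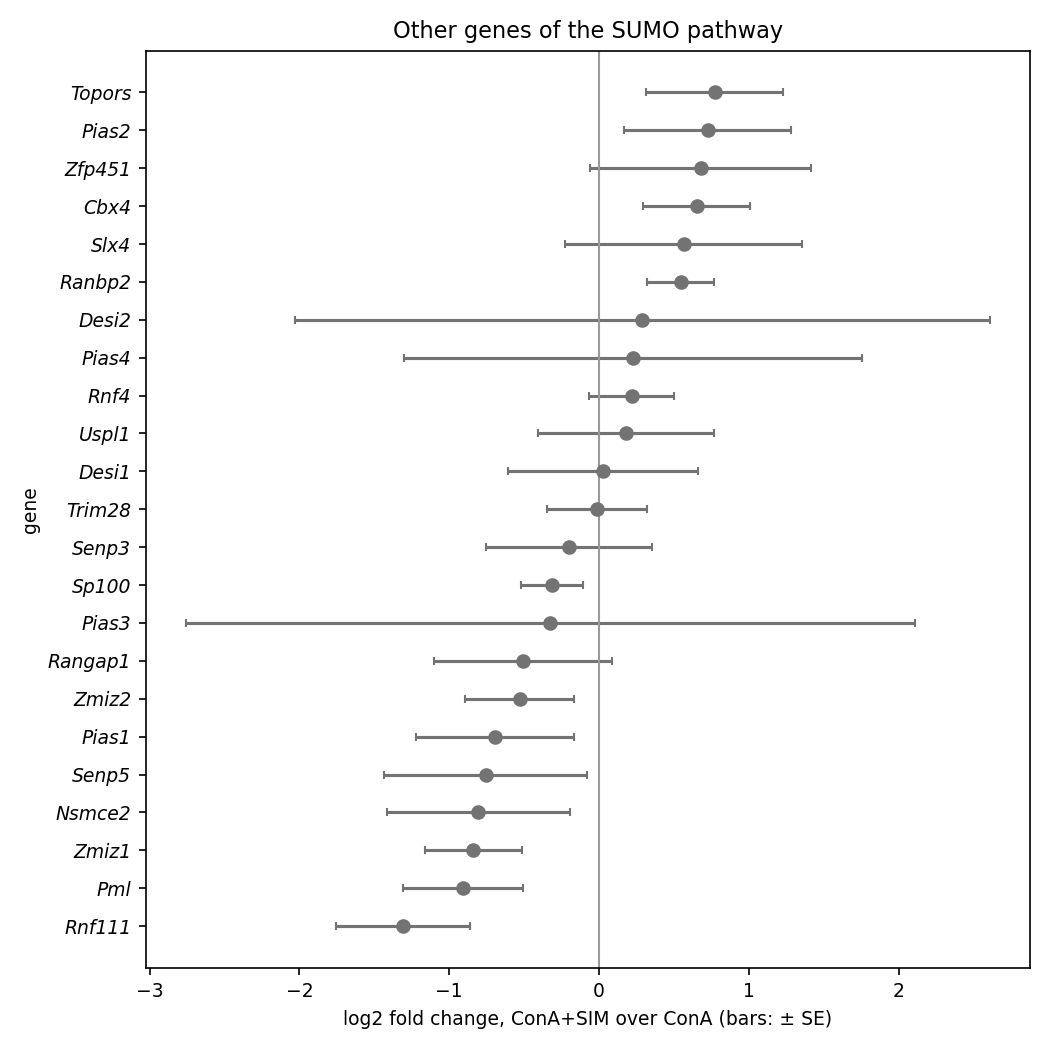
Log2 fold change, ConA+SIM over ConA (x axis, bars ± SE from the edgeR fit), of 23 tested SUMO pathway genes outside the 8, ordered from the highest to the lowest. The values run from 0.77 for Topors to -1.31 for Rnf111, and 0 of the 23 passed the threshold.

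Other ubiquitin-like systems were counted for comparison. Of 16 genes for NEDD8, UFM1, URM1, ISG15 and Fau with their enzymes, 0 passed by edgeR and 3 had an unadjusted p under 0.05, beside 8.85% of all tested genes. Their median log2 fold change was 0.74, beside -0.04 over all, with 13 values above 0 and 3 below, where 5047 of all 10509 were above 0. Of the 16, 2 had 0 counts in at least 1 library, Senp8 and Usp18. The median of this list was not computed with length offsets. Nedd8, the modifier of cullin ligases, had a log2 fold change of 0.63 ± 0.45 (edgeR adjusted p = 0.89), a sign that length offsets turned. Of 5 genes for ubiquitin and its activating enzymes 0 passed by edgeR and 2 had an unadjusted p under 0.05, with a median of -0.60, and the activating enzyme Uba1 stood at -0.60 ± 0.24 (edgeR adjusted p = 0.506). With length offsets Uba1 was at -0.24, and at -0.019 with GC content added. Differences between these lists and the 8 SUMO genes were not tested.

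Genes whose profile over the 6 libraries lay closest to a member were found by the root mean square difference of centred log2 CPM. For Sumo2 these were Czib (0.379), Ndufa5, a respiratory complex subunit (0.396), and a copy row of Ufd1 (0.406), where the median over all other tested genes was 1.58. For Sumo3 they were the deubiquitinase gene Usp45 (0.0976), the endosomal GTPase gene Rab5b (0.132) and Ints14, an Integrator subunit (0.165), with a median of 0.983. For Senp2 they were the major vault protein gene Mvp (0.162), Mllt1, a super elongation complex subunit (0.171), and Tm9sf1 (0.172), with a median of 1.43. The nearest gene to Sumo2 was therefore further from it than the nearest genes to Sumo3 and Senp2 were from those.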

How the data were processed

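RNA of sorted liver CD4+ T cells was sequenced in 6 libraries. HISAT2 2.1.0 and build GRCm38 are named, per the submitters' processing notes. The authors deposited raw counts per gene, not normalized. The sources used here do not name the counting tool, annotation or strand setting. Each column carries 1 sample's title, from which group and replicate were read, and 0 value columns were left unused.

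Genes were kept with filterByExpr and scaled with TMM factors in edgeR 4.0.16 (R 4.3.3). ConA+SIM was tested over ConA with the quasi-likelihood F test, robust, without covariates, adjusted by Benjamini and Hochberg over 10509 genes with a threshold of 0.05. The SE of a log2 fold change is its size divided by the square root of F. CPM are counts per 1000000 counts of the scaled library total. The fit was also run on simulated counts with known changes; with the spread seen in these libraries most of those changes were not called. Alternatives were run with DESeq2 1.42.0, limma 3.58.1 (voom), other scaling and filters, offsets for transcript length and GC content (mgcv 1.9.3), a replicate block and each library left out. Transcripts, their lengths (1 per gene) and coordinates are from GENCODE M21 on GRCm38; 95.5% of tested genes had a length.

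The 8 genes and the lists were chosen with earlier results of these data known. Some genes of the lists are not reported here, and counts over a list leave them out. Named beyond the 8 were 5 pathway genes whatever their p, the genes past the threshold or else the 3 with the smallest p, Nedd8, Uba1 and the nearest profiles. The labels do not say that libraries came from separate animals, so a p-value speaks only of how these samples spread, possibly for technical reasons. No pair of libraries in a group agreed within sampling noise, with chi-square per degree of freedom from 142 to 298.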

Additional observations from a re-analysis of the deposited data

How the results depend on the processing

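Calls over all genes depended on the tool and on having all libraries: edgeR called 57 genes higher and 0 lower, DESeq2 347 and 193, and limma-voom 108 and 7. RLE scaling or no filter on low counts gave 1 lower gene each. Transcript length offsets, alone or with GC content, gave 0 higher genes, and leaving out a library gave from 0 to 3. The replicate numbers gave no sign of pairing the libraries. Correlations of deviations from the group means between libraries of the same number were 0.0111, 0.00878 and 0.0328. Not every library correlated best with its own number. A weak pairing could be missed with 3 libraries per group. With the replicate block 0 genes were called higher. Of the 8 genes 0 were called in any of the 14 alternatives. Several of these alternatives called 0 of all genes, so nothing is read from that count. Sumo2, Sae1, Senp2 and Senp6 kept their sign in all 14, with ranges from 0.66 to 2.45, from -1.78 to -0.13, from -1.49 to -0.61 and from 0.22 to 0.68. Sumo3 changed sign in 2, Uba2 in 1, and Senp1 and Senp7 in 3 each. Length offsets moved the median of all genes by 0.142 on the log2 scale, and relative to that median Senp1 stood at 0.262 and Senp7 at 0.0809, against -0.0837 and -0.0743 without the offsets. With GC content added they stood at 0.373 and -0.478. Among the other genes, Senp3 turned to 0.13 with limma-voom, 0.045 with the replicate block and 0.094 with length and GC offsets, and ran from -0.648 to 0.362 as libraries were left out, positive without ConA replicate 2. Zmiz1 turned to 0.11 with length and GC offsets, and Nedd8 to -0.23 with length offsets and -0.22 with GC content as well. The cause of these changes was not tested. Among the 8 genes the fewest counts were 181, of Sae1 in ConA+SIM replicate 2, while the biological coefficient of variation ran from 0.281 to 0.671.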
